A study of Mus musculus with 8 samples.

Results

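The thick ascending limb genes described here are 9 genes that mark or serve this nephron segment: Umod, Slc12a1, Kcnj1, Bsnd, Cldn16, Cldn19, Cldn10, Ptger3 and Egf. They were chosen by symbol, each matched 1 Ensembl identifier, and they are 9 of the 47643 genes in the count files. All 9 were expressed highly enough to be tested, among 13829 genes tested. The values come from whole kidneys of 4 conditional knockout mice (cKO; genotype Six2-Cre;Cox10-fl/fl) and 4 wild-type mice (WT; genotype wild type). In each genotype replicates 1, 3 and 4 were 3 months old and replicate 2 was 2.5 months old. Cox10 makes an enzyme of heme A synthesis that cytochrome c oxidase of the mitochondrial respiratory chain depends on, and Six2-Cre drives recombination in the progenitors of the nephron, so the thick ascending limb descends from cells in which the floxed gene is cut. The collecting duct, vessels and leukocytes have other origins and remain in the same whole-kidney RNA. The labels give no strain, do not say whether WT mice carried Cre or a floxed allele, and do not state outright that each library is another animal, so p-values measure the spread between these libraries.

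As background, the thick ascending limb reabsorbs salt without water and so dilutes the urine. The apical carrier encoded by Slc12a1 takes up sodium, potassium and chloride, the channel encoded by Kcnj1 returns potassium to the lumen, and chloride leaves on the basolateral side through channels that need barttin, the product of Bsnd. The lumen-positive voltage that results drives calcium and magnesium between the cells through pores built from claudins. The segment is rich in mitochondria and also secretes uromodulin into the urine. Several of the 9 genes are also made elsewhere: Egf is also made in the distal convoluted tubule, Kcnj1 in the collecting duct, Bsnd in the thin limb and intercalated cells, and Cldn10 in the proximal tubule.

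Expected counts summed to 9454830 to 14837448 in cKO libraries and to 9731334 to 15838026 in WT libraries, and values below are CPM, counts divided by library sizes after TMM scaling and set to the same total in each library. Reads of Y-linked genes, absent in cKO 1, cKO 2, cKO 4 and WT 1, show that sex was uneven between the genotypes. Cox10 itself had 18.4 ± 5.12 CPM in cKO and 21.0 ± 2.47 CPM in WT (SD, n = 4 each; edgeR adjusted p = 0.619), a total over the whole gene that does not check the deletion. Of the tested genes 16.7% passed an edgeR adjusted p under 0.05 for cKO against WT, 9.57% higher and 7.14% lower in cKO. Mitochondrially encoded reads were 4.10 to 5.05% of cKO counts and 4.51 to 9.23% of WT counts. Marker lists of other cell types also moved: tubular injury genes rose in 10 of 10 cases, with summed levels of 12316 to 26729 CPM in cKO and 774 to 2500 CPM in WT. Spp1 contributes more to these sums than any other injury gene. Fibroblast, macrophage, urothelium and principal cell markers rose in 7 of 7, 7 of 8, 5 of 6 and 5 of 7 tested cases. WT means were near the floor for the injury genes Krt20 (0.548 CPM) and Sox9 (0.436 CPM). They were also near it for the macrophage markers Itgam (0.783 CPM) and Fcgr1 (0.792 CPM) and the urothelium marker Krt14 (0.543 CPM). These genes passed the count filter through their cKO levels, so the numbers of rises depend in part on which genes could be tested. Proximal tubule markers fell in 4 of 10 cases (summed 2759 to 7957 CPM in cKO, 9178 to 15370 CPM in WT), distal convoluted tubule markers in 4 of 7 (448 to 577 CPM in cKO, 709 to 1415 CPM in WT), endothelial markers in 2 of 7 and intercalated cell markers in 1 of 7. Thin limb markers rose in 2 and fell in 2 of 6, and podocyte markers passed in 0 of 6 by edgeR, with 0 at an unadjusted p under 0.05 and 0 by DESeq2. Every one of these markers had reads, and their part in the results below was not tested.

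Of the 9 genes, 1 rose and 1 fell in cKO kidneys: Cldn16 was higher and Ptger3 lower. That is 22.2% of the members, against the 16.7% of all tested genes that passed, a share near the background. The other 7 did not pass, and 6 of them had log2 fold changes below zero, from -1.72 for Egf to -0.34 for Kcnj1. The median log2 fold change of the 9 genes was -0.71, where that of all tested genes was -0.014. DESeq2, run beside edgeR, also called Slc12a1, Cldn10 and Egf lower, which makes 5 of 9. Over all genes DESeq2 called more as well, 3165 where edgeR called 2310. In whole-kidney RNA, fewer cells of a segment and less RNA per cell cannot be told apart. Summed over the 9 genes the level was 3456, 1806, 3220 and 2500 CPM in cKO 1 to cKO 4 and 6694, 3981, 4672 and 4249 CPM in WT 1 to WT 4. Each cKO library lay below each WT library in this sum, to which Umod contributes more than any other of the 9 genes.

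**Figure D1:**
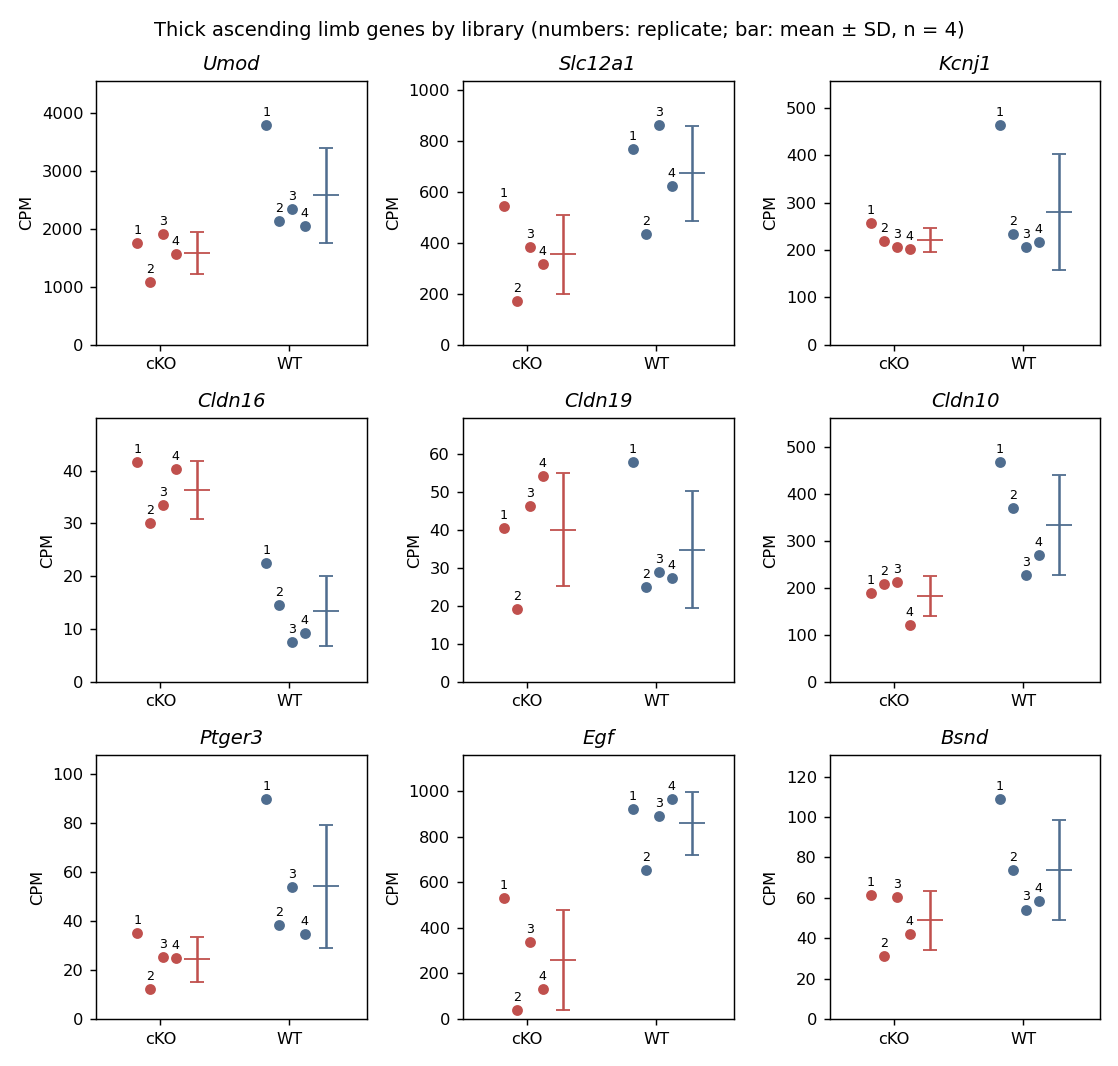
Level of each of the 9 genes in CPM (vertical axis, from 0) in the 4 cKO and the 4 WT libraries; numbers are replicates, and the bar is the mean ± SD. All 4 cKO points lie above the WT points for Cldn16 and below them for Umod, Cldn10 and Egf, and WT 1 is the highest library for 6 genes.

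Promoter sequences are shown for Umod, the most abundant of the 9 genes, and for Cldn10, because these 2 windows hold a half-site of the nephron transcription factor family HNF1, and for Cldn16, the gene that rose. Each window runs from 250 bases before to 50 bases after the RefSeq start site (GRCm38.p6), 5′ to 3′ on the gene's strand, and capitals mark the half-site GTTAAT on either strand. The windows are chr7:119479213-119479512, minus strand, for Umod, chr14:118787621-118787920, plus strand, for the upstream of the Cldn10 windows, and chr16:26462885-26463184, plus strand, for Cldn16.
Umod: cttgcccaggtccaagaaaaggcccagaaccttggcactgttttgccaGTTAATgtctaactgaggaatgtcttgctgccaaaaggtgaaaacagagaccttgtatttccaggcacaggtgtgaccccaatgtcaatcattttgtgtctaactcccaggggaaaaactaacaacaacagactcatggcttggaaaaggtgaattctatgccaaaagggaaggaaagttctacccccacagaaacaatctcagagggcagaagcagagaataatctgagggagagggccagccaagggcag
Cldn10: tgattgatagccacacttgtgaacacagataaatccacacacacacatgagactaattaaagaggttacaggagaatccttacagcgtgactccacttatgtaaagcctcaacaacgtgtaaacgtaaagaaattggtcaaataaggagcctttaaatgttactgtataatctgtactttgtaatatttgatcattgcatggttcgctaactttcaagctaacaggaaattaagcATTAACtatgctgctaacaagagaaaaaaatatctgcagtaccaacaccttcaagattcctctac
Cldn16: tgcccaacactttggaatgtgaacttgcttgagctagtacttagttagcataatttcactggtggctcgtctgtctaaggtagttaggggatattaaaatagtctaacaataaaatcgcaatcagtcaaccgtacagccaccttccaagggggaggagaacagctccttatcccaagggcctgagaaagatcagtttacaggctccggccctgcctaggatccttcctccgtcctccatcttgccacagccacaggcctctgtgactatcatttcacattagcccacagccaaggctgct
The half-site stands at positions -202 to -197 from the start of Umod and, on the opposite strand, at -15 to -10 in the upstream Cldn10 window. The downstream Cldn10 window, chr14:118854700-118854999, held 0 GTTAAT half-sites. Which of these starts gives the form of the thick ascending limb was not tested, so the upstream match is not ascribed to that form. RefSeq windows were matched for 8 of the 9 genes, 11 windows in all, and 2 of these 11 held GTTAAT, against 7.1% of 32851 promoter windows. A half-site of the estrogen-related receptors, AAGGTCA, was in 0 of the 11 windows and in 4.7% of all windows. These are matches of letters in a short window and not measured binding.

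The salt carrier and its companions were lower on average in cKO kidneys, but none of these 3 genes passed. Slc12a1 (ENSMUSG00000027202, mm10 chromosome 2, 125152505 to 125230002, plus strand), the furosemide-sensitive sodium-potassium-chloride carrier, had 544, 171, 382 and 317 CPM in cKO 1 to cKO 4 and 769, 435, 861 and 624 CPM in WT 1 to WT 4. The groups overlapped only through cKO 1, which lay above WT 2. The means were 354 ± 154 CPM in cKO and 672 ± 186 CPM in WT (SD, n = 4 each), a difference larger than either SD. Its log2 fold change was -0.93 (SE 0.36, 95% interval -1.71 to -0.15; edgeR adjusted p = 0.0962; exact two-sided permutation p = 0.0571, where 0.0286 is the smallest value that 70 splits allow). The call moved with the setting: Slc12a1 passed with DESeq2 (adjusted p = 0.0386), with an age term, with the replicate number as a block and without cKO 1, and its adjusted p ran from 0.0227 to 0.641 over the 27 alternatives.

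Kcnj1 (ENSMUSG00000041248, chromosome 9, 32372493 to 32399197, plus strand) encodes the ROMK potassium channel. It had 258, 219, 206 and 203 CPM in cKO 1 to cKO 4 and 465, 234, 206 and 218 CPM in WT 1 to WT 4. Apart from WT 1 the libraries of both genotypes shared the same range. Averages were 222 ± 25.2 CPM in cKO and 281 ± 123 CPM in WT (SD, n = 4 each), with a log2 fold change of -0.34 (95% interval -0.97 to 0.29, edgeR adjusted p = 0.433). Without WT 1 that value was 0.0075, of the opposite sign.

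Bsnd (ENSMUSG00000025418, chromosome 4, 106483456 to 106492283, minus strand) encodes barttin, the subunit that brings kidney chloride channels to the membrane. The libraries held 61.6, 31.1, 60.2 and 42.3 CPM in cKO 1 to cKO 4 and 109, 73.9, 54.2 and 58.3 CPM in WT 1 to WT 4. WT 3 and WT 4 fell among the cKO values. Bsnd averaged 48.8 ± 14.7 CPM in cKO and 73.8 ± 24.9 CPM in WT (SD, n = 4 each), and its log2 fold change of -0.60 did not pass (SE 0.29, 95% interval -1.22 to 0.029, edgeR adjusted p = 0.17).

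Among the claudins the 3 genes differed in direction. Cldn16 (ENSMUSG00000038148, chromosome 16, 26463135 to 26482765, plus strand), which with claudin-19 forms the cation pore for calcium and magnesium, had 41.6, 30.0, 33.6 and 40.3 CPM in cKO 1 to cKO 4 and 22.4, 14.5, 7.59 and 9.25 CPM in WT 1 to WT 4. Every cKO library was above every WT library, as for 13.1% of all tested genes. The mean was 36.4 ± 5.52 CPM in cKO and 13.4 ± 6.67 CPM in WT (SD, n = 4 each), on 276 to 682 counts per cKO library and 93 to 260 per WT library. Cldn16 rose by a log2 fold change of 1.44 (SE 0.32, 95% interval 0.75 to 2.13, edgeR adjusted p = 0.0115; exact permutation p = 0.0286). It passed with each single library left out, at 1.24 to 1.80, and with a sex term, at 1.21. Within libraries with Y-linked reads it was 1.69 (adjusted p = 0.0407) and within those without them 0.74 (adjusted p = 0.605). It also did not pass without WT 4 and cKO 4, whose sample numbers in the file headers stand apart from the rest (1.20, adjusted p = 0.118), and its adjusted p ran from 0.000401 to 0.605 over the 27 alternatives.

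Cldn19 (ENSMUSG00000066058, chromosome 4, 119255414 to 119262438, plus strand), the partner of claudin-16 in that pore, had 40.5, 19.3, 46.2 and 54.2 CPM in cKO 1 to cKO 4 and 57.8, 24.9, 29.0 and 27.4 CPM in WT 1 to WT 4. Each group spanned more than the distance between them: WT 1 was the highest library of all and cKO 2 the lowest. Cldn19 averaged 40.0 ± 14.9 CPM in cKO and 34.8 ± 15.4 CPM in WT (SD, n = 4 each), with a log2 fold change of 0.21 (95% interval -0.55 to 0.96, edgeR adjusted p = 0.708). The ratio of Cldn16 CPM to Cldn19 CPM was 1.03, 1.55, 0.727 and 0.745 in cKO 1 to cKO 4 and 0.390, 0.583, 0.266 and 0.341 in WT 1 to WT 4. This ratio was chosen after its values were seen and was not tested, and each cKO library lay above each WT library in it.

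Cldn10 (ENSMUSG00000022132, chromosome 14, 118787908 to 118875489, plus strand) encodes claudin-10, whose b form makes the sodium pore of the thick ascending limb and whose a form is made in the proximal tubule. The counts per gene analysed here do not separate the forms. There were 189, 209, 213 and 122 CPM in cKO 1 to cKO 4 and 468, 370.4, 228 and 271 CPM in WT 1 to WT 4. The groups did not overlap, but the highest cKO library, cKO 3, was close to the lowest WT library, WT 3. Cldn10 averaged 183 ± 42.4 CPM in cKO and 334 ± 107 CPM in WT (SD, n = 4 each), and its log2 fold change of -0.87 did not pass (SE 0.29, 95% interval -1.497 to -0.24, edgeR adjusted p = 0.0596; exact permutation p = 0.0286). It passed with DESeq2 (adjusted p = 0.0208), with an age term (adjusted p = 0.0497) and without WT 3 (adjusted p = 0.0447), and over the 27 alternatives it ran up to 0.718. Proximal tubule markers moved the same way, with the summed levels given above.

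Ptger3 (ENSMUSG00000040016, chromosome 3, 157566892 to 157645888, plus strand) encodes the prostaglandin E2 receptor EP3, which restrains salt uptake in this segment. Its values were 35.0, 12.2, 25.1 and 24.7 CPM in cKO 1 to cKO 4 and 89.5, 38.2, 53.7 and 34.5 CPM in WT 1 to WT 4. Only cKO 1 reached the lowest WT library, WT 4. With 24.2 ± 9.33 CPM in cKO and 54.0 ± 25.1 CPM in WT (SD, n = 4 each), Ptger3 fell by a log2 fold change of 1.15 (SE 0.36, 95% interval -1.94 to -0.37, edgeR adjusted p = 0.0477; exact permutation p = 0.0571). This call was close to the threshold: leaving out WT 1, WT 3, cKO 2, cKO 3 or cKO 4 ended it, with adjusted p up to 0.118, and so did upper quartile scaling, limma-voom and leaving out the 2.5-month pair. Without WT 1 the log2 fold change was -0.80.

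The secreted products Umod and Egf were lower on average in cKO without passing. Umod (ENSMUSG00000030963, chromosome 7, 119462711 to 119479282, minus strand), which encodes uromodulin, had 1758, 1075, 1916 and 1564 CPM in cKO 1 to cKO 4 and 3791, 2136, 2341 and 2043 CPM in WT 1 to WT 4. All cKO libraries were below all WT libraries, as for 9.56% of tested genes, and cKO 3 came close to WT 4. Umod averaged 1578 ± 365 CPM in cKO and 2578 ± 818 CPM in WT (SD, n = 4 each), with a log2 fold change of -0.71 (SE 0.31, 95% interval -1.39 to -0.028, edgeR adjusted p = 0.137; exact permutation p = 0.0286). It passed under 0 of the 27 alternatives; its unadjusted edgeR p was 0.0425 and its DESeq2 adjusted p 0.0551. Without WT 1 the log2 fold change was -0.47.

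Egf (ENSMUSG00000028017, chromosome 3, 129677565 to 129755316, minus strand) encodes the precursor of epidermal growth factor, which among other roles promotes magnesium uptake in the distal convoluted tubule. It held 529, 39.1, 337 and 133 CPM in cKO 1 to cKO 4 and 923, 653, 891 and 964 CPM in WT 1 to WT 4. The groups did not overlap, and the cKO libraries spread 13.6-fold between cKO 1 and cKO 2, while the WT libraries spread 1.48-fold. Means were 259.7 ± 219 CPM in cKO and 858 ± 139 CPM in WT (SD, n = 4 each), so the cKO mean was 0.303 of the WT mean. The log2 fold change of -1.72 was the lowest of the 9 genes but had a wide error (SE 0.60, 95% interval -3.03 to -0.42, edgeR adjusted p = 0.0691; exact permutation p = 0.0286). Egf passed with DESeq2 (adjusted p = 0.01), with an age term, with the replicate block and without cKO 1, and over the 27 alternatives its adjusted p ran up to 0.625. Markers of the distal convoluted tubule, which also makes Egf, had summed levels of 448 to 577 CPM in cKO and 709 to 1415 CPM in WT.

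**Figure D2:**
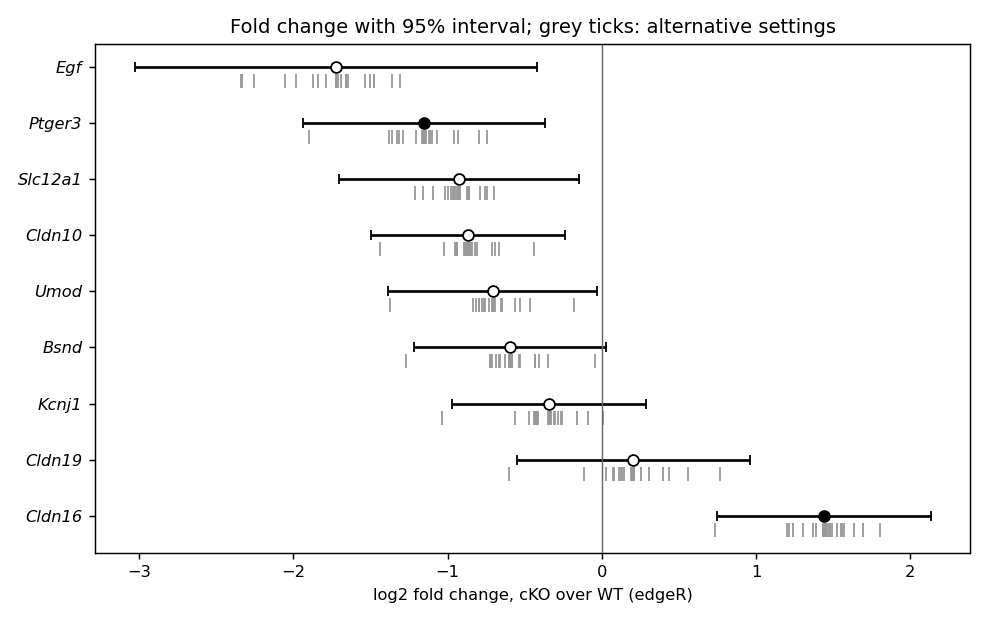
Log2 fold change of each gene, cKO over WT, with its 95% interval from edgeR (horizontal axis); filled points passed an adjusted p under 0.05, and grey ticks are the values under the 27 alternatives. Cldn16 and Ptger3 passed, and the ticks of Cldn19 and Kcnj1 reach both sides of zero.

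The libraries differed among themselves in a way shared by many of the genes. WT 1 was the highest of all 8 libraries for 6 of the 9 genes, and cKO 2 the lowest for 6. Among cKO libraries alone cKO 2 was the lowest for 7 genes; it also had the lowest summed proximal tubule level, 2759 CPM, and the highest summed injury level, 26729 CPM. WT 1 is the only WT library without Y-linked reads and had the highest summed injury level among WT libraries, 2500 CPM. Spp1 made up most of these injury sums, at 1946 CPM in WT 1 and 23464 CPM in cKO 2. Among WT libraries, WT 1 was the lowest for Havcr1, at 1.90 CPM, and the highest for Lcn2, at 6.04 CPM. Within libraries without Y-linked reads the log2 fold changes were -1.37 for Umod, -1.27 for Bsnd and -0.60 for Cldn19, and within those with them -0.18, -0.045 and 0.77, each contrast having a single library on 1 side. An interaction of genotype and sex passed for 0 of the 9 genes by edgeR, with a smallest unadjusted p of 0.0562, and for 0.0651% of all tested genes.

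Per kilobase of annotated exon, Umod stood far above the rest, at 571 ± 132 CPM per kilobase in cKO and 933 ± 296 in WT (SD, n = 4 each). In WT it was followed by Cldn10 (129 ± 41.4), Slc12a1 (117 ± 32.2), Kcnj1 (84.2 ± 36.9) and Egf (76.1 ± 12.4 CPM per kilobase), neighbours that lie within 1 SD of each other. Bsnd came next at 26.8 ± 9.02, and Cldn16, Ptger3 and Cldn19 were lowest, at 11.5 ± 5.69, 9.49 ± 4.41 and 8.16 ± 3.62 CPM per kilobase, again within their spread. In cKO, Cldn10 (70.7 ± 16.4), Kcnj1 (66.5 ± 7.55) and Slc12a1 (61.4 ± 26.8) did not differ beyond their spread. Cldn16, at 31.0 ± 4.71 CPM per kilobase, stood beside Egf (23.0 ± 19.4) and above Bsnd (17.7 ± 5.33), Cldn19 (9.39 ± 3.51) and Ptger3 (4.26 ± 1.64).

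A further comparison asked whether the genes changed in step with the carrier that defines the segment, by testing each gene's log2 ratio to Slc12a1 in the same library with limma over all genes. A change shared with Slc12a1 drops out of this ratio. All ratios contain the same Slc12a1 values, so their errors are not independent between genes. Because limma pools variances over genes, its p-values here and in the alternatives may be smaller than 4 against 4 libraries can bear. Relative to Slc12a1, which was itself lower on average, 34.7% of all tested genes passed in cKO against WT, 34.0% higher and 0.738% lower. Of the 8 remaining genes 2 passed, both higher, which is below the background share. Cldn16 was higher relative to Slc12a1 by 2.54 on the log2 scale (SE 0.49, limma adjusted p = 2.44e-05), with ratios of -3.70, -2.51, -3.50 and -2.97 in cKO 1 to cKO 4 and -5.09, -4.90, -6.80 and -6.05 in WT 1 to WT 4. No cKO ratio reached a WT ratio, and the call held in 12 of 12 alternatives. Cldn19 was higher relative to Slc12a1 by 1.19 (SE 0.48, limma adjusted p = 0.044), but a sex term or leaving out WT 3, WT 4, cKO 3 or cKO 4 ended that call, with adjusted p up to 0.201.

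Relative to Slc12a1, Egf had log2 ratios of -0.039, -2.13, -0.18 and -1.25 in cKO 1 to cKO 4 and 0.264, 0.586, 0.049 and 0.628 in WT 1 to WT 4. The groups did not overlap, with cKO 1 and cKO 3 close to WT 3. The difference of -1.28 (SE 0.54, limma adjusted p = 0.052) did not pass, and passed without cKO 1 (adjusted p = 0.0208, range 0.00987 to 0.242 over 12 alternatives). Against Umod in place of Slc12a1, Egf was lower by a difference of -1.59 (limma adjusted p = 0.0204) and Cldn16 higher by 2.23 (limma adjusted p = 1.84e-05). The differences of the other 5 genes from Slc12a1 did not pass: 0.30 for Umod (95% interval -0.82 to 1.42), 0.74 for Kcnj1 (-0.30 to 1.77), 0.15 for Cldn10 (-0.89 to 1.19), -0.14 for Ptger3 (-1.09 to 0.80) and 0.40 for Bsnd (-0.55 to 1.36). Both signs lie within each of these intervals.

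**Figure D3:**
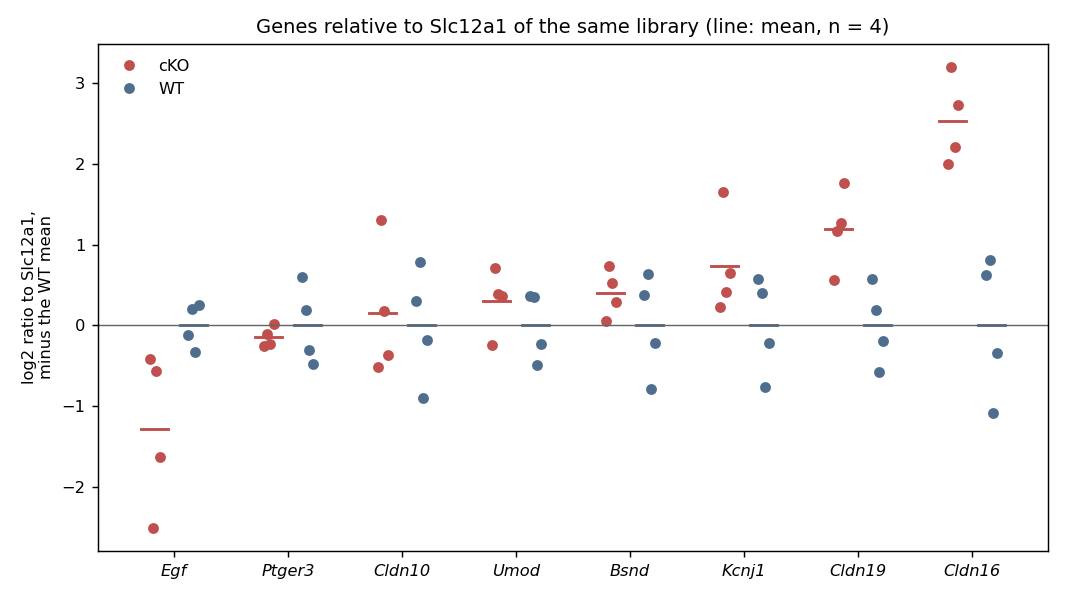
Log2 ratio of each gene to Slc12a1 in the same library, after subtracting the WT mean of that gene (vertical axis); points are the libraries in order of replicate, cKO left of WT, and lines are means. Cldn16 in cKO lies above every WT library, Egf in cKO below every WT library, and the other genes overlap.

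By a fixed measure of likeness, the root mean square difference of log2 CPM over the 8 libraries after centring each gene on its own mean, the nearest of 8921 genes with a mean of at least 10 CPM were listed for the carrier and for uromodulin. Nearest to Slc12a1 was Casr, the calcium-sensing receptor, at 0.16, followed by Cyfip2 at 0.187, the mitofusin gene Mfn2 at 0.192, the sugar carrier gene Slc5a9 at 0.197 and Rab11fip4 at 0.199. Casr averaged 11.1 ± 5.97 CPM in cKO and 21.9 ± 7.15 CPM in WT (SD, n = 4 each), with a log2 fold change of -0.96 that did not pass (edgeR adjusted p = 0.113) but passed with an age term (adjusted p = 0.0186) and with the replicate block (adjusted p = 0.0157). Nearest to Umod were Cdk5rap1 at 0.1, the sodium-proton exchanger gene Slc9a2 at 0.13, the sphingomyelinase gene Smpd1 at 0.171, Rab27a at 0.18 and, among the 9 genes themselves, Bsnd at 0.182. Of the other members Ptger3 was the closest to Slc12a1, at rank 92, while Cldn16 and Egf were at ranks 8432 and 6116.

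Partners of salt transport, listed from general knowledge of the segment, fell in 3 of 16 cases, 13 did not pass, and the median log2 fold change was -0.56. The share called, 18.8%, is near the 16.7% of all tested genes. This list and the lists below were chosen with earlier results of these data known, so the shares called are descriptions and not tests. Kcnt1, a sodium-activated potassium channel gene, had 0.161 ± 0.163 CPM in cKO and 7.51 ± 3.35 CPM in WT (log2 fold change -5.34, edgeR adjusted p = 0.000348). It was near the floor in cKO and passed the count filter through its WT level. The kinase gene Wnk1, which acts on salt carriers in several segments, had 111 ± 30.9 CPM in cKO and 239 ± 63.2 CPM in WT (adjusted p = 0.0204), a call lost with a sex term or without WT 3, WT 4, cKO 3 or cKO 4 (adjusted p up to 0.0746). The list had 7 falls with an age term, 5 with DESeq2 or without WT 2, and 1 with a sex term.

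Hormone and calcium receptors with their cyclase split in direction: of 7 tested among 9, 3 fell, 2 rose and 2 did not pass, a share called of 71.4% against 16.7% of all tested genes. The endothelin receptor Ednrb had 4.17 ± 1.18 CPM in cKO and 15.7 ± 2.20 CPM in WT (edgeR adjusted p = 0.000856), and the parathyroid hormone receptor Pth1r, which the proximal tubule also makes, 321 ± 129 CPM in cKO and 700.4 ± 126 CPM in WT (adjusted p = 0.0339). The calcitonin receptor Calcr rose to 2.38 ± 1.12 CPM in cKO, against 0.361 ± 0.246 CPM in WT (adjusted p = 0.0145). Calcr passed the count filter through its cKO level, so the share called depends in part on which genes could be tested. Ptger4, which encodes the prostaglandin receptor EP4, had 6.07 ± 1.00 CPM in cKO and 2.59 ± 0.92 CPM in WT (adjusted p = 0.0209), so it moved opposite to Ptger3 (SD, n = 4 each). The cells that made each of these receptors cannot be told apart in whole-kidney RNA. Calcr lost its call without cKO 4, Ptger4 without WT 3, WT 4 or cKO 3, and Pth1r without WT 2, WT 4, cKO 1, cKO 2 or cKO 4. A sex term left 1 call, Ednrb, and the count was 3, 2, 3, 3 and 2 without WT 3, WT 4, cKO 2, cKO 3 and cKO 4.

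Of 10 junction and magnesium genes 7 were tested and 1 rose, Cldn3, a tight-junction claudin that restricts paracellular flow, at 44.2 ± 21.5 CPM in cKO and 12.4 ± 5.52 CPM in WT (log2 fold change 1.84, edgeR adjusted p = 0.00912; with a sex term 0.0502). The share called in this list, 14.3%, is below the 16.7% of all tested genes. Cldn14, whose product is known to block the claudin-16 and claudin-19 pore, was too low to be tested and is named because of its values. It had 15, 14, 10 and 55 counts in cKO 1 to cKO 4 and 0, 0, 0 and 1 counts in WT 1 to WT 4. With no count filter its edgeR adjusted p was 0.000361. Leaving out WT 1, WT 2, WT 3, WT 4, cKO 2 or cKO 3 took the list to 2 rises.

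Transcription factors of the segment were all below zero in log2 fold change, from -1.35 to -0.044 with a median of -0.98, and 3 of 9 passed, or 33.3% against 16.7% of all tested genes. The coactivator gene Ppargc1a, which promotes mitochondrial biogenesis, had 16.1 ± 6.45 CPM in cKO and 41.0 ± 11.6 CPM in WT (edgeR adjusted p = 0.0123). Esrrg, an estrogen-related receptor gene that works with it, had 20.5 ± 9.54 CPM in cKO and 51.2 ± 10.1 CPM in WT (adjusted p = 0.0152), and the homeobox gene Irx1 17.8 ± 6.28 CPM in cKO and 35.3 ± 9.27 CPM in WT (adjusted p = 0.0447; SD, n = 4 each). A sex term ended the calls of these 3 genes, with adjusted p of 0.0649, 0.0755 and 0.302. Without cKO 4 only Ppargc1a kept its call, and Irx1 kept it in 1 of the 8 fits that leave out a library. With an age term or the replicate block the list had 5 falls.

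Other genes enriched in the segment fell in 7 of 13 cases, 6 did not pass, and the median log2 fold change was -0.99. The share called was 53.8%, against 16.7% of all tested genes, in a list chosen with earlier results of these data known. Wfdc15b, a gene of the whey acidic protein family, had 32.0 ± 9.60 CPM in cKO and 249 ± 159 CPM in WT (log2 fold change -2.96, edgeR adjusted p = 0.00145). The phosphatase inhibitor gene Ppp1r1b, which encodes DARPP-32, had 13.2 ± 6.40 CPM in cKO and 60.7 ± 20.2 CPM in WT (adjusted p = 0.00322). Mfsd4a, a gene of the facilitator transporter family, had 8.41 ± 4.90 CPM in cKO and 30.3 ± 8.67 CPM in WT (adjusted p = 0.0106), and Ranbp3l 14.4 ± 4.15 CPM in cKO and 34.3 ± 10.8 CPM in WT (adjusted p = 0.0135; SD, n = 4 each). Of these 4 genes Ranbp3l lost its call with a sex term (adjusted p = 0.0549), and without cKO 4 the list had 4 falls.

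Macula densa genes, from the cells at the end of the segment that sense salt, rose in 3 of 5 tested cases of 6, against 9.57% of all tested genes higher. Pappa2 and Ptgs2 were near the floor in every WT library and passed the count filter through their cKO levels. The 3 of 5 therefore depends in part on which genes could be tested. Pappa2, a protease that frees insulin-like growth factor, had 19.7 ± 9.85 CPM in cKO and 0.471 ± 0.259 CPM in WT (log2 fold change 5.30, edgeR adjusted p = 8.88e-05), and the cyclooxygenase gene Ptgs2 3.16 ± 0.925 CPM in cKO and 0.477 ± 0.271 CPM in WT (adjusted p = 0.00286). Ptges, the prostaglandin E synthase gene, which other kidney cells also express, had 58.5 ± 11.4 CPM in cKO and 28.4 ± 10.3 CPM in WT (adjusted p = 0.024; SD, n = 4 each), a call lost with a sex term or without WT 3, WT 4 or cKO 4 (adjusted p up to 0.101). Of 10 genes for processing and folding of uromodulin and the growth factor precursor 1 rose, the protease inhibitor gene Spint2, at 400.0 ± 108 CPM in cKO and 217 ± 49.8 CPM in WT (adjusted p = 0.0467). This 1 of 10 is near the 9.57% of all tested genes that were higher. The Spint2 call was lost with a sex term, with the replicate block, with no count filter, or without WT 2, WT 3, WT 4, cKO 2, cKO 3 or cKO 4 (adjusted p up to 0.244).

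**Figure D4:**
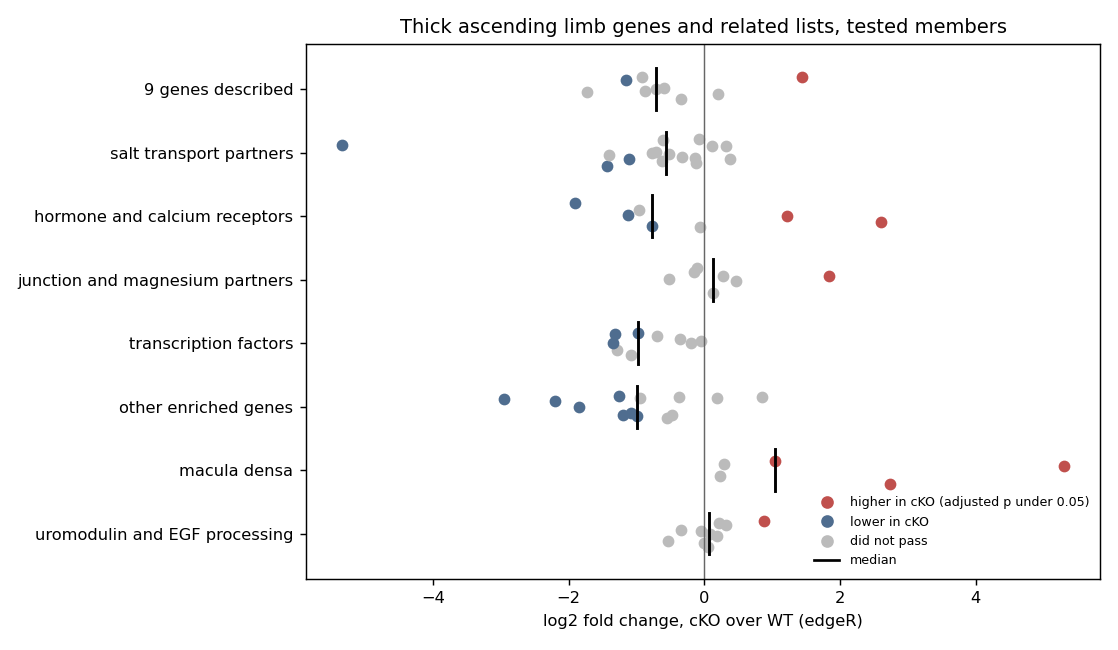
Log2 fold change, cKO over WT (horizontal axis), of the tested members of the 9 genes and of 7 related lists; red points rose, blue points fell, grey points did not pass, and black lines are medians. The medians of macula densa (1.05) and of the other enriched genes (-0.99) lie on opposite sides of zero.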

How the data were processed

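The deposited files hold RSEM expected counts per Ensembl gene, 1 file per library, which the authors did not scale; alignment with STAR and the build mm10 are per the submitters' processing notes. The sources used here do not give tool versions, annotation release or the strand setting of the counting. A kit that keeps strand was used per the labels' protocols, and antisense genes that overlap Umod, Slc12a1, Cldn19 and Egf averaged under 1 CPM. Symbols and positions came from the GENCODE annotation of that build (47224 of 47643 identifiers matched).

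Counts were rounded, filtered with filterByExpr (13829 genes kept), scaled by TMM and tested with the edgeR quasi-likelihood test (robust), adjusted by Benjamini-Hochberg over all tested genes at a threshold of 0.05. Ratios to Slc12a1 used limma (trend, robust) on log2 CPM with a prior count of 2. Permutation tests were exact, two-sided, over 70 splits, and not adjusted over the 9 genes. Tools were edgeR 4.0.16, DESeq2 1.42.0 and limma 3.58.1 in R 4.3.3, with figures from matplotlib 3.10.9 in Python 3.11.15.

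The 9 genes and the lists were chosen with earlier results of these data known. From each pathway list the text names up to 4 called genes, taken by adjusted p, and cell type markers are given as counts. A single called list gene is not reported here. For the sex term, a library counted as Y-bearing at 10 or more Y-linked counts. Steps were checked on simulated counts with 200 genes changed. There edgeR called 11% of the 2-fold and 86% of the 4-fold changes, with 8 false calls. The 200 changed genes are fewer than the 2310 that passed in the data, and the adjustment depends on that number. The shares called in the simulation therefore do not give the share of changes missed in the data. Alternatives were other scalings, filters, tests, thresholds, sex and age terms, a replicate block and libraries left out; the term for the later sample numbers was added after seeing the data.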

Additional observations from a re-analysis of the deposited data

Results flagged for a closer look

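In 3 of 18 groups of 4 libraries (9 genes, 2 genotypes) a single library stood far from the others by Dixon's test, which flags about 1 in 20 groups by chance. All 3 were WT 1. Umod had 3791 CPM in WT 1, the smallest of the 3 gaps. Kcnj1 had 464.5 CPM there, with a gap of 0.891 of the range, and Cldn19 57.8 CPM, with a gap of 0.876. WT 1 is also the WT library without Y-linked reads, and with 1 such library in WT sex and this library cannot be told apart.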

How the results depend on the processing

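Of 243 values of the 9 genes under 27 alternatives, 209 kept direction and side of the threshold, 17 lost a call, 14 gained one and 3 changed sign (Kcnj1 0.0075 without WT 1, within a range of -0.47 to 0.0075 with 1 library left out; Cldn19 -0.60 within libraries without Y-linked reads and -0.11 without WT 4 and cKO 4). The number of genes called, 2310 with all libraries, was 941 with a sex term, 1397 without the 2.5-month pair, 120 and 480 within libraries without and with Y-linked reads, 568 without WT 4 and cKO 4, 798 and 3526 at thresholds of 0.01 and 0.10, and 1155 to 3093 with 1 library left out. DESeq2 called 3165 genes and the fit with an age term 2980. The 2 calls among the 9 genes became 1 with upper quartile scaling, library size only, limma-voom, the 2.5-month pair left out, libraries with Y-linked reads or a term for the later sample numbers. They became 0 within libraries without Y-linked reads, without WT 4 and cKO 4 and at 0.01 (edgeR, 6 at an unadjusted p under 0.05 with all libraries), 5 with DESeq2, an age term or a threshold of 0.10, and 1 to 4 with 1 library left out. Relative to Slc12a1, 2 calls became 1 with a sex term and 1 to 3 with 1 library left out; Ptger3 changed sign to 0.054 without WT 1 (range -0.30 to 0.054), and Cldn10 to -0.15 without WT 3 and -0.23 without cKO 2 (range -0.23 to 0.41). Smpd1 and Cox10 changed sign to 0.089 and 0.072 within libraries with Y-linked reads. The causes were not tested. Replicate numbers match the libraries in part: both libraries numbered 2 are the 2.5-month pair, and both numbered 4 have the later sample numbers. Same-number correlations were -0.08, 0.28, 0.12 and -0.0022 for replicates 1 to 4, and 0.28 was the highest of all pairs of a WT and a cKO library. With the replicate block 4 of the 9 genes and 2208 genes passed, and 3 relative to Slc12a1. Scaling by library size moved the median of all genes to 0.145 and split the calls into 1866 higher and 550 lower, where TMM gave 1323 and 987.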

Other observations

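Related genes below the count filter had few reads. Nos1, the nitric oxide synthase of the macula densa, held 33, 3, 23 and 18 counts in cKO 1 to cKO 4 and 7, 5, 8 and 11 counts in WT 1 to WT 4, so that cKO 2 lay below every WT library and the other cKO libraries above them. Cldn11 held 17 counts over the cKO libraries and 53 over the WT libraries, 37 of these in WT 2. Cldn18 held 13 counts over the cKO and 43 over the WT libraries, and the vasopressin receptor gene Avpr2 25 over the cKO and 10 over the WT libraries.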
